A study of Mus musculus with 18 samples.

Results

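Retinas of male mice with untreated insulin-dependent diabetes were compared with retinas of normoglycaemic male mice by RNA sequencing of polyadenylated RNA. The comparison took every library whose label names the untreated Akita group or the untreated WT group, 7 of the 18 libraries of the series. The 4 Akita libraries came from C57BL/6-Ins2Akita/J mice, which carry 1 Ins2Akita allele, and the 3 WT libraries came from C57BL/6J mice. Both groups drank water without drug from 4 to 24 weeks of age, and the retinas were taken at 24 weeks. The other 11 libraries (WT and Akita mice given the antioxidant NACET) were not compared. They entered the choice of genes tested, the scaling of counts and the estimate of the spread between libraries. The Akita mutation misfolds insulin in pancreatic beta cells and acts in the whole animal, so the retina was exposed to the diabetic state through the blood.

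In the retina, rods and cones in the outer layer turn light into a graded signal, bipolar cells carry it inward, horizontal and amacrine cells shape it by releasing GABA and glycine, and ganglion cells send it to the brain. Rods are by far the most numerous cells of the mouse retina, so their transcripts make up a large part of any retinal library. Diabetes is known to harm both retinal vessels and neurons, and the Akita mouse is a common model of both. In RNA from a whole retina, fewer cells of a type and less RNA per cell cannot be told apart.

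The libraries carried the markers of retina. Genes of rod phototransduction summed to 144962, 150979 and 194397 counts per 1e6 of TMM-scaled library size (CPM) in WT replicates 1 to 3 and to 222615, 203410, 205171 and 300327 CPM in Akita replicates 1 to 4. The TMM factors, which set libraries to a common level over most genes, multiplied values by 0.919 to 1.007 in WT and by 1.032 to 1.246 in Akita. Without them the rod sums were 156242, 164295 and 193138 per 1e6 gene reads in WT and 210440, 197186, 195653 and 241070 in Akita, with all 4 Akita values above WT replicate 3, Akita replicates 2 and 3 only slightly. Ins2, the gene that carries the Akita mutation, had 0 to 7 reads per library, and its level cannot serve to check the genotype. The labels do not say whether each library came from a separate animal, and p-values measure the spread between these libraries, which may be technical. After removal of ribosomal RNA genes the libraries held 11495596 to 17814480 reads on genes. 3 libraries stood apart. WT replicate 2 carried pigment epithelium transcripts, with 19 marker genes summing to 1248 CPM against 282 to 549 CPM in the other 6 libraries, and all 19 of these genes were measurable. Akita replicate 2 carried lens transcripts, with 17 crystallin genes at 3507 CPM against 41.2 to 98.7 CPM elsewhere. Akita replicate 4 had the highest rod sum and the lowest amacrine and ganglion cell sums. The share of uniquely aligned reads outside exons was 17.1%, 17% and 14.9% in the WT libraries and 13.3%, 12.9%, 9.67% and 10.2% in the Akita libraries. Every Akita library lay below every WT library in this share, with a raw p of 0.0286 by an exact two-sided permutation test, the smallest that 3 against 4 libraries allow, and 0.143 after Benjamini-Hochberg adjustment over 5 library measures.

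**Figure D1:**
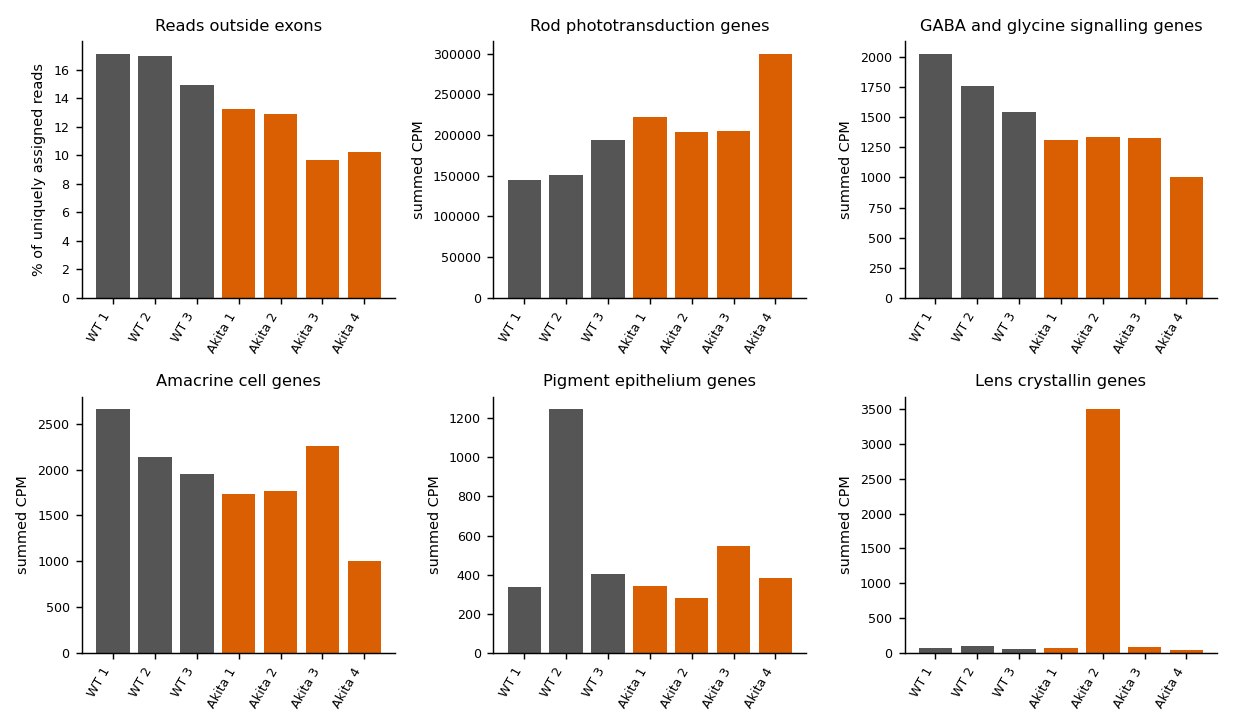
Share of uniquely aligned reads outside exons (%) and summed level (CPM) of 5 gene lists in each library, with WT bars in grey and Akita bars in orange, all axes starting at 0. Reads outside exons fall from 17.1% in WT replicate 1 to 9.67% in Akita replicate 3, the rod sum is highest in Akita replicate 4 (300327 CPM), the pigment epithelium sum in WT replicate 2 (1248 CPM) and the lens sum in Akita replicate 2 (3507 CPM).

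The promoters of the rod genes that differed between Akita and WT are shown first, because these genes moved together and because the transcription factor CRX, a homeodomain protein that drives photoreceptor genes, is known to bind the letters TAATCC. The windows come from RefSeq (GRCm38.p6) promoters that run from 250 bases before to 50 bases after each gene start, are written on the strand of the gene, and have TAATCC or its reverse complement GGATTA in capitals with 12 bases on each side.
Cnga1, chr5:72642963-72642992, minus strand: agtgtctcatttTAATCCtaatgataaact
Cngb1, chr8:95306626-95306655, minus strand: ttctgcacatgcTAATCCtttgcacccggc
Cngb1, chr8:95306593-95306622, minus strand: tctagtgccaatTAATCCtggctgggtctg
Crx, chr7:15880032-15880061, minus strand: gtgggggtggtgGGATTAagcagacggtgc
Crx, chr7:15879959-15879988, minus strand: ccaccttccctgGGATTAcccttccagatc
Gnb5, chr9:75306270-75306299, plus strand: tccagataaaagGGATTAggtgaccaatgg
Gucy2e, chr11:69237047-69237076, minus strand: atcggcttggagGGATTAagggctgcagcg
Gucy2f, chrX:142197003-142197032, minus strand: gatcaatttaaaGGATTAcaagtgtcactc
Gucy2f, chrX:142196978-142197007, minus strand: cactctaaatccTAATCCaggtcttggtgt
The 9 matches lie 6 to 228 bases before the gene start. A match was present in 6 of the 9 rod genes that differed and have a promoter in the table; Gnb1, Nrl and Slc24a1 had none. Over all 31 rod genes, 22 had a promoter and 10 of these (45.5%) held a match, against 679 of 11670 tested genes with a promoter (5.82%) and 1935 of the 27025 promoters in the whole table (7.16%). Among genes called higher in Akita the share was 42 of 491 (8.55%), and among genes called lower it was 23 of 435 (5.29%). The antioxidant response element core TGACNNNGC, to which NRF2 binds, was present in 79 of 491 promoters of genes called higher (16.1%), 65 of 435 of genes called lower (14.9%) and 1702 of 11670 of all tested genes (14.6%). Since promoters were found for fewer than 80% of each of these sets, the shares describe the matched genes alone and are void as a check of the sets. A match is a run of letters, not a shown binding site.

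A gene was called when its adjusted p was at most 0.05 in edgeR's quasi-likelihood test with Benjamini-Hochberg adjustment over all 16183 genes tested. Between Akita and WT, 1237 genes (7.64%) were called, of which 641 (3.96%) were higher and 596 (3.68%) lower in Akita. Changes were small: the median log2 fold change was 0.47 among genes called higher and -0.75 among genes called lower, and 28 of the former and 154 of the latter passed 2-fold. The median over all tested genes was -0.01. These directions are relative to the TMM scaling. With library totals in its place, a fit added after the data were seen, the median over all tested genes was -0.21, and 215 genes were called higher and 1646 lower, so that 11.6% of the calls were higher against 51.8%. All 1237 called genes kept their sign in that fit. In 1818 genes (11.2%) every Akita library was above every WT library, and in 1936 genes (12%) every Akita library was below every WT library. Abundant genes made up most of the increases. With genes ranked by mean level into 4 bins, the top bin (4046 genes at 49 CPM or more) held 422 called higher and 78 called lower, while the second bin (4046 genes at 3.29 to 15.8 CPM) held 58 and 235. Genes called lower were also longer, with a median exon length of 4740 bases against 3585 for genes called higher and 3404 for all tested genes. Long noncoding RNAs of the lincRNA class were 33 of the genes called lower (5.59%) and 6 of the genes called higher (0.938%), against 3.60% of tested genes.

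**Figure D2:**
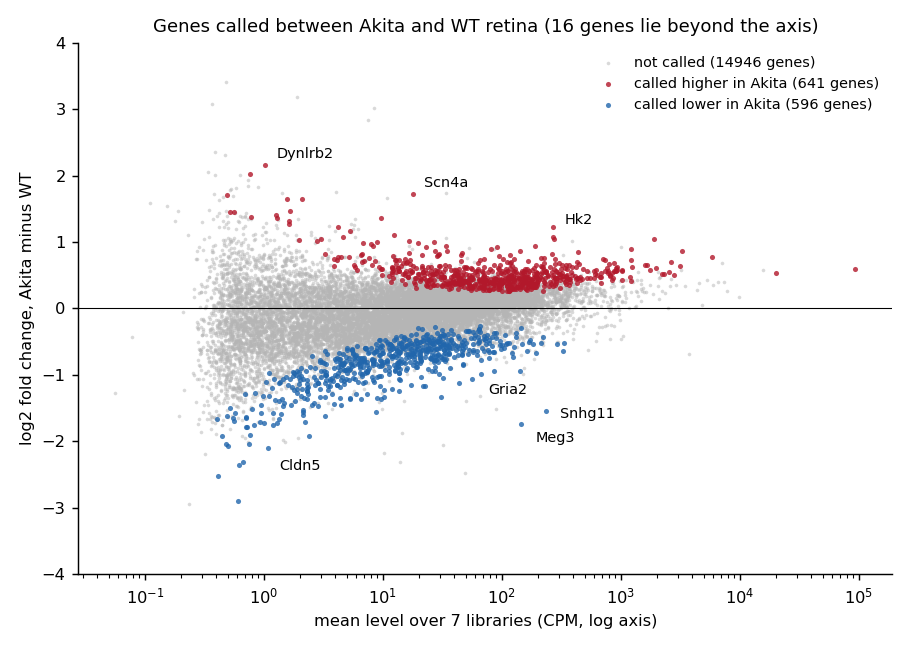
Mean level over the 7 libraries (CPM, log axis) against log2 fold change, Akita minus WT, for the 16183 genes tested, with 641 genes called higher in red and 596 called lower in blue. Red points gather at high levels and blue points at low and middle levels, with Meg3 and Snhg11 the most strongly lowered of the called genes above 100 CPM.

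These calls rested on few libraries. Leaving out WT replicate 1 or WT replicate 2 left 0 called genes, with 3021 and 3241 genes at an unadjusted p under 0.05, and leaving out Akita replicate 4 left 234. When the percentage of reads outside exons entered the fit as a covariate, 0 genes were called by edgeR, with 2022 at an unadjusted p under 0.05. In each of these 4 fits all 1237 genes kept the sign of their difference. In 1155 of them the groups did not overlap, so leaving out 1 library could hardly turn the sign. The signs kept in the fits that leave out 1 library are therefore no support for the calls. That reason does not cover the covariate fit. It used the same libraries and called 0 genes, so its kept signs are no independent support.

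**Figure D3:**
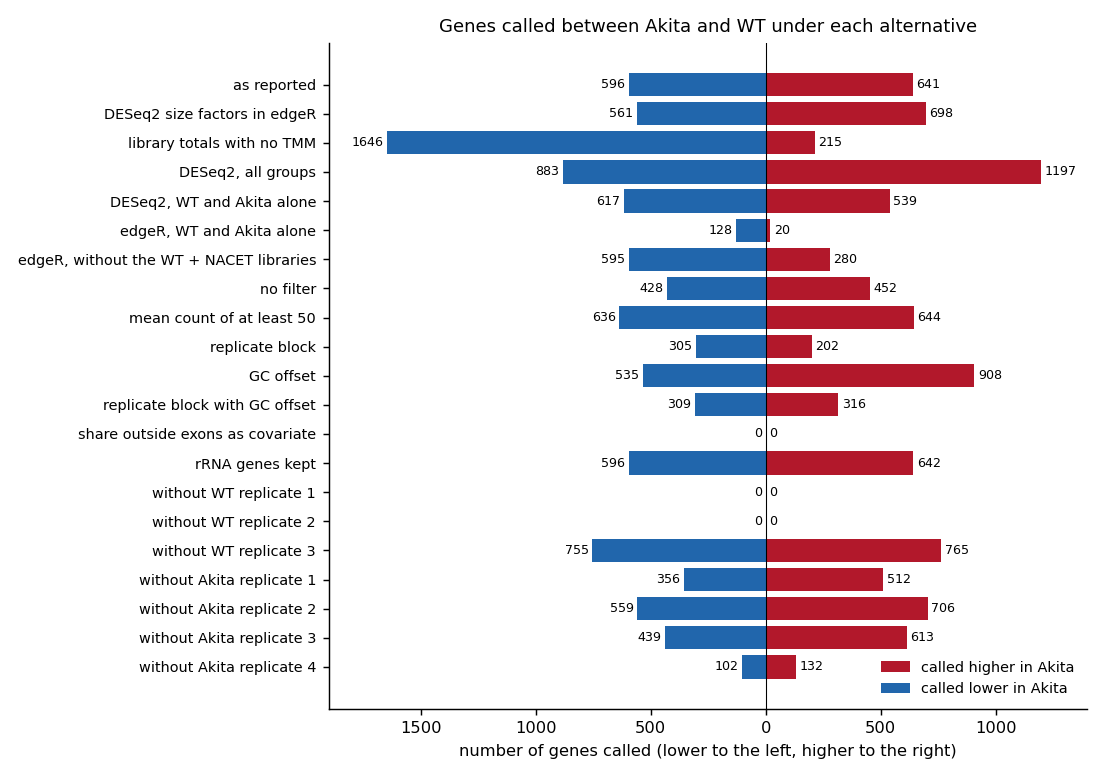
Number of genes called higher (red, right) and lower (blue, left) in Akita as reported and under 20 alternatives. The bars range from 0 called genes without WT replicate 1, without WT replicate 2 and with the covariate for reads outside exons, to 1197 higher with DESeq2 on all groups and 1646 lower with library totals in place of TMM.

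Rod genes were higher in diabetic retina. Of 31 genes of rod phototransduction and rod identity, 12 (38.7%) were called higher in Akita and 0 lower, against 3.96% of all tested genes called higher. All 31 had a positive log2 fold change, with a median of 0.48 against -0.01 over all tested genes, and in 15 every Akita library exceeded every WT library (48.4% against 11.2% of all genes). With library totals in place of TMM the median of the rod phototransduction list was 0.26 and 7 members were called higher. By edgeR 0 members were called without WT replicate 1, WT replicate 2 or Akita replicate 4. The same held with WT and Akita fitted alone (median 0.47) and with reads outside exons as a covariate (median 0.26). Nrl, the transcription factor that commits precursors to the rod fate, measured 1813, 1819 and 2348 CPM in the WT libraries and 2564, 2448, 3084 and 3578 CPM in the Akita libraries, a 1.46-fold difference (log2 fold change 0.55 ± 0.15 (SE), adjusted p = 0.036). Crx measured 617, 705 and 796 CPM in WT and 952, 896, 953 and 1572 CPM in Akita (0.63 ± 0.16, adjusted p = 0.026). The groups did not overlap for either factor.

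Rod genes called higher covered several steps of the light response. Gnb1 (0.54), a transducin subunit, and Gnb5 (0.53) and Rgs9bp (0.56), partners of the protein that switches transducin off, belong to the G protein step. Cnga1 (0.47) and Cngb1 (0.55) form the cGMP-gated cation channel of rods. Gucy2e (0.50) and Gucy2f (0.55) are the guanylate cyclases that restore cGMP, and Slc24a1 (0.66) is the rod sodium, calcium and potassium exchanger. Reep6 (0.70), an endoplasmic reticulum protein of rods, rose too. Slc24a1 measured 1088, 1235 and 1436 CPM in WT and 1852, 1679.7, 1559.5 and 2826 CPM in Akita. Members that were not called included Gnat1, the rod transducin alpha subunit (0.57, adjusted p = 0.063), Sag, rod arrestin (0.17, adjusted p = 0.51), and Pde6b, a subunit of the rod phosphodiesterase (0.36, adjusted p = 0.085).

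Cone genes did not pass the test. Of 14 cone genes 0 were called, with a median log2 fold change of 0.21, or 0.01 with library totals in place of TMM. Opn1mw, the green-sensitive cone opsin, measured 216, 168 and 257 CPM in WT and 254, 231, 279 and 312 CPM in Akita (0.33 ± 0.15, adjusted p = 0.15), and Opn1sw, the ultraviolet-sensitive opsin, measured 1128, 1384 and 1463 CPM and 977, 1195, 1071 and 2176 CPM (0.03 ± 0.29, adjusted p = 0.95). The difference between the rod and cone lists was not tested. Of 43 genes of the photoreceptor cilium, which links the inner to the outer segment, 8 (18.6%) were called higher, against 3.96% of all tested genes, and 0 lower (median 0.22). Without Akita replicate 4 the median of the photoreceptor cilium list was 0.13 with 1 call, and with library totals in place of TMM it was 0.01 with 5 called higher and 1 lower. Bbs9, a subunit of the BBSome that carries cargo in cilia, rose from 139, 146 and 181 CPM in WT to 212, 199, 199.8 and 259 CPM in Akita (0.48 ± 0.11, adjusted p = 0.02). Cdhr1, a cadherin of the outer segment, rose from 845, 887 and 1115 CPM in WT to 1376, 1251, 1232 and 2012 CPM in Akita (0.63 ± 0.16, adjusted p = 0.028). Dynlrb2, a dynein light chain, had the largest increase among called genes with a mean of at least 1 CPM, at a low level (0.503, 0.0799 and 0.422 CPM in WT and 2.17, 1.45, 1.70 and 0.912 CPM in Akita, 2.16 ± 0.44, adjusted p = 0.016).

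**Figure D4:**
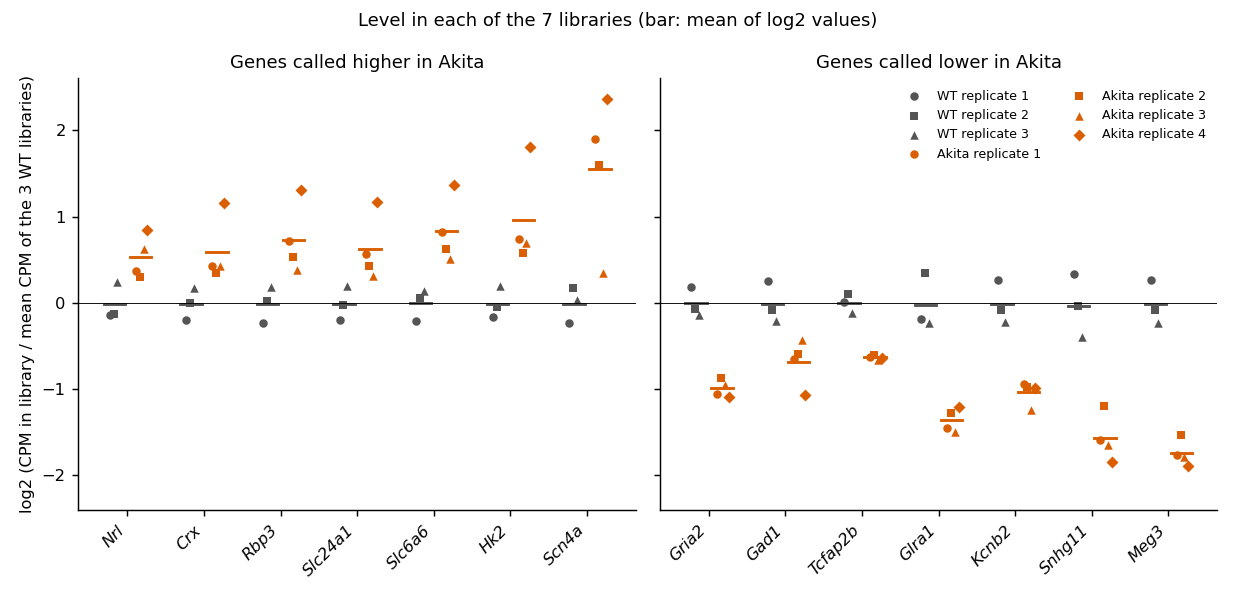
Level of 7 genes called higher (left) and 7 called lower (right) in each library, as log2 of CPM over the mean CPM of the 3 WT libraries, with a bar at the mean of the log2 values of each group. Among the genes at left Akita replicate 4 (diamond) is the highest library for all 7; among the genes at right all 4 Akita libraries lie below all 3 WT libraries.

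Genes of inhibitory interneurons were lower in diabetic retina. Of 21 amacrine cell genes 10 (47.6%) were called lower in Akita and 0 higher, against 3.68% of all tested genes called lower, and in 12 every Akita library was below every WT library (57.1% against 12%). The median log2 fold change was -0.57. The summed level of the list was 2663, 2139 and 1957 CPM in WT and 1735, 1770, 2260 and 1008 CPM in Akita. The groups overlapped in this sum. By edgeR 2 members were called lower with WT and Akita fitted alone and 1 without Akita replicate 4. With reads outside exons as a covariate, or without WT replicate 1 or 2, 0 members were called, as over all tested genes. Gad1 makes GABA from glutamate. It measured 293, 231 and 211 CPM in WT and 155, 163, 182 and 117 CPM in Akita (-0.67 ± 0.17, adjusted p = 0.027), and Gad2, the second GABA-synthesising enzyme, 49.1, 37.8 and 35.1 CPM and 27.8, 28.3, 31.96 and 23.04 CPM (-0.55 ± 0.15, adjusted p = 0.036). Tcfap2b, a transcription factor of amacrine and horizontal cells, fell from 73.2, 77.5 and 66.6 CPM in WT to 46.8, 47.8, 45.9 and 46.4 CPM in Akita (-0.63 ± 0.14, adjusted p = 0.017), with the 4 Akita libraries within 2 CPM of each other. Vip, the neuropeptide of 1 amacrine class, measured 7.47, 6.63 and 6.38 CPM in WT and 3.16, 3.65, 3.52 and 1.99 CPM in Akita (-1.14 ± 0.28, adjusted p = 0.023). Pax6, a transcription factor kept on in amacrine, horizontal and ganglion cells, fell from 297, 258 and 227 CPM in WT to 186, 197, 208 and 132 CPM in Akita (-0.53 ± 0.13, adjusted p = 0.024); its exons overlap those of Elp4 on the other strand, and the counting ignored strand. The other called members were Slc17a8 (-0.94), Tcfap2c (-0.79), C1ql2 (-0.68), Slc6a9 (-0.66) and Slc32a1 (-0.57). Chat, which marks cholinergic starburst cells, was not called (-0.31, adjusted p = 0.41), and Penk varied from 14.99 to 255 CPM among WT and from 7.63 to 367 CPM among Akita libraries.

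The same direction was found across GABA and glycine signalling. Of 29 genes, which include 4 of the amacrine list, 14 (48.3%) were called lower, against 3.68% of all tested genes, and 0 higher. Of the 29, 28 had a negative log2 fold change (median -0.55). In 20 (69%, against 12% of all tested genes) every Akita library was below every WT library. Slc6a11, the transporter GAT-3, fell from 41.6, 38.8 and 31.1 CPM in WT to 26.5, 25.2, 22.6 and 16.99 CPM in Akita (-0.70 ± 0.16, adjusted p = 0.021). Glra1, a glycine receptor subunit, showed the largest decrease of the list, from 5.89, 8.55 and 5.72 CPM in WT to 2.45, 2.78, 2.39 and 2.90 CPM in Akita (-1.35 ± 0.29, adjusted p = 0.017). Gabrg3, a GABA-A receptor subunit, fell from 10.6, 9.03 and 7.17 CPM in WT to 5.12, 4.52, 4.77 and 3.73 CPM in Akita (-0.97 ± 0.20, adjusted p = 0.015). Other called members included the glycine transporter Slc6a5 (-1.06) and the GABA-A receptor subunits Gabrb1 (-0.83), Gabrb2 (-0.55) and Gabra3 (-0.55), beside Gad1, Gad2, Slc6a9 and Slc32a1. Gphn, the scaffold of inhibitory synapses, had a log2 fold change of 0.00 (adjusted p = 0.98).

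Receptors for glutamate on inner retinal neurons were lower as well. Of 17 AMPA, kainate, NMDA and delta receptor subunits 7 (41.2%, against 3.68% of all tested genes) were called lower and 0 higher (median -0.64). Gria2, the AMPA receptor subunit that limits calcium entry, measured 107, 89.5 and 85.4 CPM in WT and 45.3, 51.4, 48.7 and 44.01 CPM in Akita (-0.99 ± 0.17, adjusted p = 0.012), 1 of the 6 smallest p-values among genes called lower. Gria3 fell from 31.7, 25.3 and 23.5 CPM in WT to 15.1, 16.6, 19.4 and 13.1 CPM in Akita. Gria4 fell from 70.9, 52.4 and 50.3 CPM in WT to 41.5, 38.7, 38.99 and 29.4 CPM in Akita. The kainate receptor subunit Grik2 fell from 6.61, 7.91 and 6.44 CPM in WT to 3.02, 4.63, 3.33 and 3.23 CPM in Akita. The remaining called members were Gria1 (-0.59) and the NMDA receptor subunits Grin2b (-1.05) and Grin2c (-1.92), the last at a mean under 1 CPM. Of 22 genes of metabotropic receptors and glutamate transport, 3 (13.6%) were called lower and 2 (9.09%) higher. All tested genes gave 3.68% and 3.96%. Grm7, a presynaptic metabotropic receptor, fell from 26.2, 21.7 and 16.7 CPM in WT to 13.1, 13.6, 13.4 and 11.9 CPM in Akita (-0.72 ± 0.16, adjusted p = 0.017). The 2 that rose were Slc1a7, a glutamate transporter of photoreceptors and bipolar cells (0.61 ± 0.14, adjusted p = 0.018), and Slc17a7, the vesicular glutamate transporter of photoreceptors and bipolar cells (0.62 ± 0.16, adjusted p = 0.027).

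Ion channel genes followed a like pattern in their calls. Of 43 potassium channel genes 11 (25.6%) were called lower, against 3.68% of all tested genes, and 1 higher (median -0.53), and of 39 sodium, calcium and HCN channel genes 7 (17.9%) were called lower and 1 higher (median -0.52). Summed levels overlapped between the groups. The potassium channel sum was 2232, 2088 and 2326 CPM in WT and 2350, 2319, 2078 and 3368 CPM in Akita. The sodium, calcium and HCN channel sum was 1436, 1299 and 1299 CPM in WT and 1214, 1231, 1091 and 1348 CPM in Akita. Kcnb2, a delayed rectifier potassium channel, measured 13.8, 10.8 and 9.81 CPM in WT and 5.96, 5.85, 4.83 and 5.80 CPM in Akita (-1.03 ± 0.20, adjusted p = 0.015). Cacna2d1, an auxiliary calcium channel subunit, fell from 47.7, 36.2 and 30.9 CPM in WT to 19.6, 23.9, 24.3 and 19.2 CPM in Akita (-0.81 ± 0.14, adjusted p = 0.012). Cacna1d, the pore of a long-lasting calcium channel, fell from 8.04, 8.63 and 7.47 CPM in WT to 3.86, 4.86, 4.27 and 2.49 CPM in Akita (-1.04 ± 0.21, adjusted p = 0.015). The channels that rose were Kcnj14, an inward rectifier (0.72 ± 0.20, adjusted p = 0.034), and Scn4a, the sodium channel known from skeletal muscle. Scn4a measured 6.61, 8.71 and 7.89 CPM in WT and 28.9, 23.3, 9.86 and 39.9 CPM in Akita (1.72 ± 0.34, adjusted p = 0.016), while 0 of 7 tested skeletal muscle genes were called and their summed level was 104, 97.9 and 93.5 CPM in WT and 81.8, 90.9, 96.9 and 62.5 CPM in Akita.

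The other neuron classes of the inner retina differed in their share of called genes. Of 22 bipolar cell genes 1 was called lower (4.55%, near the 3.68% of all tested genes), Rgs11, which ends the G protein signal of ON bipolar cells (39.9 to 50.4 CPM in WT and 21.1 to 35.3 CPM in Akita, -0.66 ± 0.19, adjusted p = 0.043). Yet 19 of the 22 bipolar genes had a negative log2 fold change (median -0.30, or -0.02 with reads outside exons as a covariate). In 7 (31.8%, against 12% of all tested genes) every Akita library was below every WT library. Of 10 horizontal cell genes 2 (20%, against 3.68% of all tested genes) were called lower. In 4 of the 10 (40%, against 12% of all tested genes) every Akita library was below every WT library. The called members were Megf10 (-0.98 ± 0.23, adjusted p = 0.023) and Megf11 (-0.59 ± 0.15, adjusted p = 0.025), cell surface proteins that space horizontal and starburst cells, both highest in WT replicate 2. Of 29 retinal ganglion cell genes 1 (3.45%, near the share of all tested genes) was called lower, the transcription factor Ebf3 (-0.90 ± 0.20, adjusted p = 0.017), and 1 higher, the adhesion protein Jam2 (0.41 ± 0.10, adjusted p = 0.027). 28 of the 29 had a negative log2 fold change, with a median of -0.41 that moved to -0.20 without WT replicate 1, to -0.22 without Akita replicate 4 and to -0.68 with reads outside exons as a covariate. Rbpms, a pan-ganglion cell marker, measured 65.2, 44.2 and 45.04 CPM in WT and 37.6, 50.7, 52.99 and 27.4 CPM in Akita, so the groups overlapped (-0.28 ± 0.22, adjusted p = 0.43). Thy1 measured 198, 120.2 and 143 CPM in WT and 121, 132, 146 and 58.4 CPM in Akita (-0.43 ± 0.28, adjusted p = 0.34), with Akita replicate 4 far below the other libraries.

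Synaptic genes were called in both directions. Of 42 genes of transmitter release and the ribbon synapse 5 (11.9%) were called higher and 1 (2.38%) lower. All tested genes gave 3.96% and 3.68%, and the list median was -0.08. The 5 that rose were Ctbp2, the gene of the ribbon protein RIBEYE (188, 207 and 196 CPM in WT and 269, 248, 225 and 374 CPM in Akita, 0.50 ± 0.14, adjusted p = 0.035), Cplx4, a complexin of photoreceptor terminals (0.58 ± 0.17, adjusted p = 0.041), and Sv2b (0.42), Dnajc5 (0.46) and Vamp2 (0.43) of synaptic vesicles. The gene that fell was Syn2, a synapsin, a vesicle protein absent from ribbon terminals (-0.76 ± 0.23, adjusted p = 0.046). Of 46 postsynaptic scaffold and adhesion genes 10 (21.7%) were called lower and 2 (4.35%) higher, against 3.68% and 3.96% of all tested genes (median -0.48). Homer2, a scaffold of metabotropic receptors, fell from 19.5, 13.7 and 12.6 CPM in WT to 8.70, 7.93, 9.48 and 7.13 CPM in Akita. Lrrtm2, a neurexin partner, fell from 20.8, 18.1 and 15.2 CPM in WT to 11.7, 12.3, 10.05 and 6.55 CPM in Akita. The 2 that rose were Dlg4, which encodes PSD-95 and is found in photoreceptor terminals (279, 244 and 262 CPM in WT and 373, 343, 387 and 546 CPM in Akita, 0.66 ± 0.13, adjusted p = 0.015), and the adhesion gene Cadm2 (0.51 ± 0.15, adjusted p = 0.042). Of 51 axon guidance genes 6 (11.8%, against 3.68% of all tested genes) were called lower and 0 higher (median -0.50). Among them were the secreted cue Slit2 (50.7, 52.2 and 32.9 CPM in WT and 25.7, 22.6, 20.8 and 17.9 CPM in Akita, -1.05 ± 0.27, adjusted p = 0.029) and the receptor Epha4 (-0.83 ± 0.20, adjusted p = 0.024). Of 23 neurotrophic genes 3 (13%) were called lower and 1 (4.35%) higher, against 3.68% and 3.96% of all tested genes. The receptors Cntfr (-0.97), Gfra1 (-0.69) and Gfra2 (-0.55) were lower, and the ligand Nrtn (0.68) was higher. Neurturin binds the receptor encoded by Gfra2, so ligand and receptor moved in opposite directions.

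**Figure D5:**
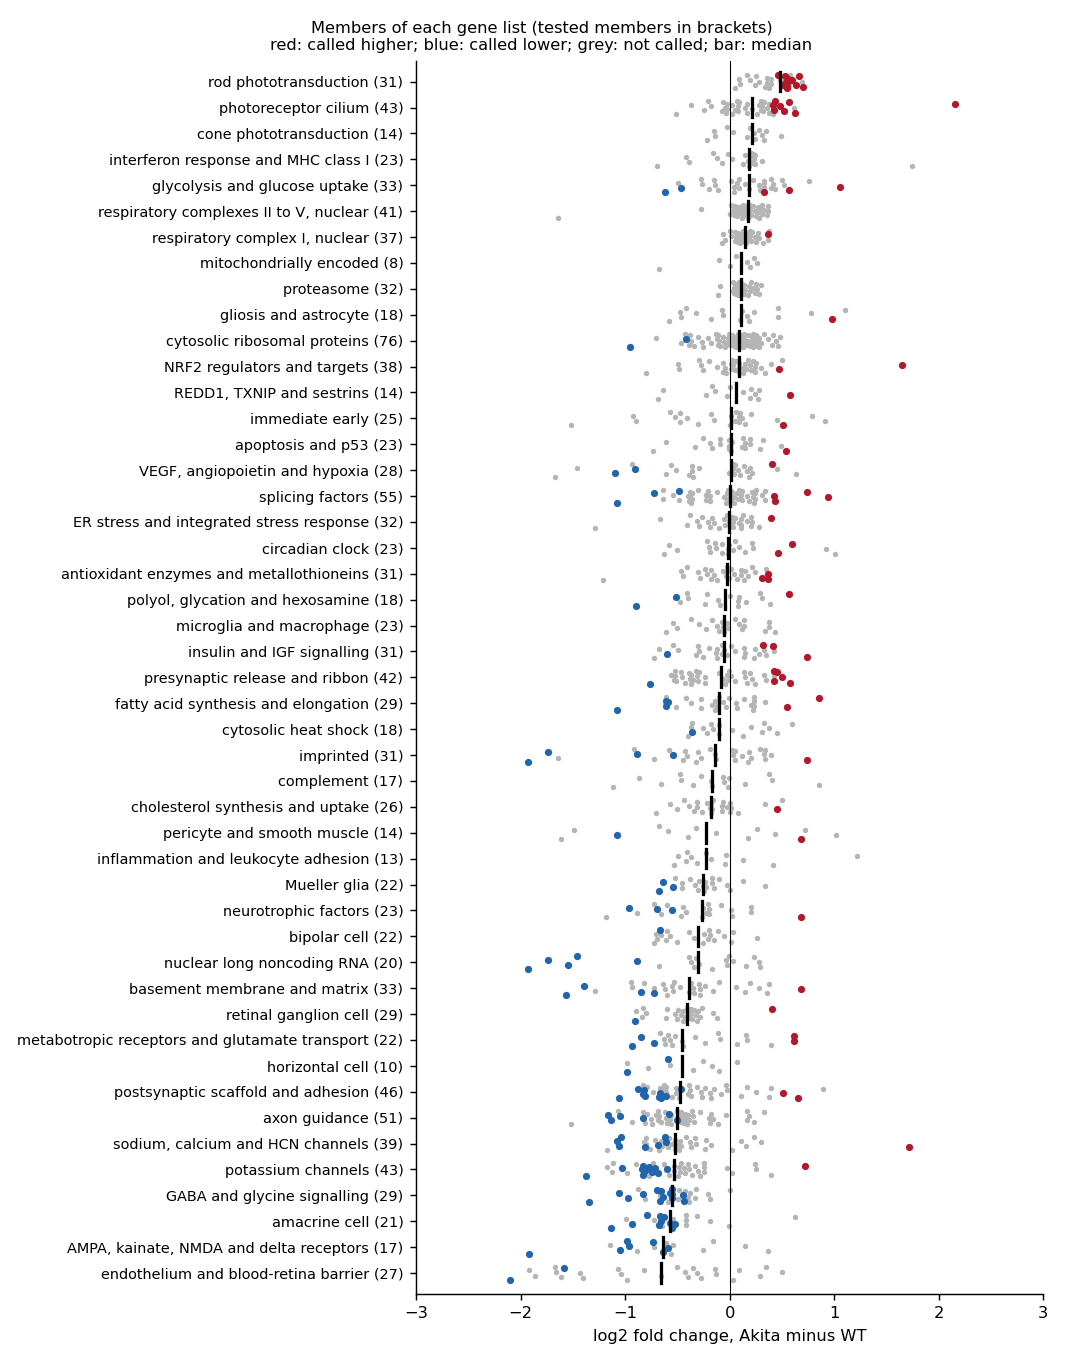
Log2 fold change, Akita minus WT, of each tested member of 47 gene lists, ordered by the list median (black bar), with called members in red (higher) and blue (lower). Rod phototransduction is at the top (0.48), and endothelium (-0.65), glutamate receptors (-0.64), amacrine cell (-0.57) and GABA and glycine signalling (-0.55) are at the bottom. Over the 12 endothelial members with a mean count of at least 50 the median was -0.23.

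Glial genes gave few calls. Of 22 Mueller glia genes 3 (13.6%, against 3.68% of all tested genes) were called lower: Aqp4, the water channel of glial end feet (64.98, 84.1 and 60.9 CPM in WT and 54.5, 48.1, 48.4 and 41.4 CPM in Akita, -0.54 ± 0.13, adjusted p = 0.023), Abca8a, a lipid transporter (-0.64 ± 0.17, adjusted p = 0.033), and Spon1, an extracellular protein (-0.68 ± 0.16, adjusted p = 0.023). All 3 were highest in WT replicate 2, the library with pigment epithelium transcripts, whose part was not tested. The median of the Mueller glia list moved from -0.25 to -0.15 without that library and to -0.12 without Akita replicate 4. The list held 0 calls in either fit, but without WT replicate 2 that was so for all tested genes. Glul, the enzyme that turns glutamate into glutamine, was not called (-0.46 ± 0.17, adjusted p = 0.09). Of 18 gliosis and astrocyte genes 1 (5.56%, against 3.96% of all tested genes) was called higher, Lcn2, which encodes the acute-phase protein lipocalin-2. Lcn2 measured 3.02, 5.36 and 4.70 CPM in WT and 10.2, 8.45, 7.10 and 8.62 CPM in Akita (0.98 ± 0.25, adjusted p = 0.027). Gfap, the classical sign of glial activation, spread widely in both groups (78.6, 33.01 and 50.6 CPM in WT and 117, 62.4, 85.5 and 33.2 CPM in Akita, 0.46 ± 0.44, adjusted p = 0.53). Of 23 microglia and macrophage genes 0 were called (median -0.05), and P2ry12, a receptor of resting microglia, had the smallest p among them (6.44 to 8.47 CPM in WT and 3.65 to 5.53 CPM in Akita, -0.55 ± 0.20, adjusted p = 0.09). Of 6 oligodendrocyte genes and 5 red cell genes 0 were called.

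Some vascular genes, Cldn5 and Eng among them, were measured at low levels. Of 27 endothelial and barrier genes 2 (7.41%, against 3.68% of all tested genes) were called lower and 0 higher (median -0.65). At a mean count of at least 50, 12 of them remained, with a median of -0.23 and 0 calls by edgeR. The summed level of the list was 443, 531 and 394 CPM in WT and 453, 453, 554 and 532 CPM in Akita. Cldn5, the claudin of endothelial tight junctions, measured 2.30, 2.56 and 0.963 CPM in WT and 0.491, 0.579, 0.126 and 0.580 CPM in Akita (-2.11 ± 0.59, adjusted p = 0.037), on 2 to 32 reads per library. Eng, a co-receptor for TGF-beta in endothelium, fell from 2.66, 3.04 and 1.14 CPM in WT to 0.842, 0.869, 0.816 and 0.414 CPM in Akita (-1.59 ± 0.45, adjusted p = 0.039), with exons that overlap Ak1 and Fpgs. The better measured endothelial receptor Kdr was not called (70.7 to 92.97 CPM in WT and 49.3 to 75.6 CPM in Akita, -0.35 ± 0.19, adjusted p = 0.25), nor was Pecam1 (0.35 ± 0.29, adjusted p = 0.46). Of 14 pericyte and smooth muscle genes 1 (7.14%) was called lower and 1 (7.14%) higher, against 3.68% and 3.96% of all tested genes. Pdgfrb, the receptor that defines pericytes, was lower (3.73, 7.11 and 3.61 CPM in WT and 1.68, 3.42, 2.26 and 1.57 CPM in Akita, -1.08 ± 0.32, adjusted p = 0.044). Mylk, a myosin light chain kinase, was higher (0.68 ± 0.14, adjusted p = 0.015). Of 33 basement membrane and matrix genes 4 (12.1%) were called lower and 1 (3.03%) higher, against 3.68% and 3.96% of all tested genes. Col6a1 fell from 17.4, 14.1 and 11.3 CPM in WT to 4.14, 5.73, 5.34 and 3.98 CPM in Akita (-1.56 ± 0.32, adjusted p = 0.016), Lama1 (-1.40), Agrn (-0.85) and Lamb1 (-0.72) fell with it, and Col4a3 rose from 181, 151 and 175 CPM in WT to 320.2, 262, 189.8 and 312 CPM in Akita (0.68 ± 0.16, adjusted p = 0.023). WT replicate 2, which carried pigment epithelium transcripts, was the highest library for Cldn5, Eng, Pdgfrb, Lama1, Agrn and Lamb1. Without it 0 of all tested genes were called, so the 0 calls in these 3 lists are not particular to them. The median of the basement membrane and matrix list turned from -0.39 to 0.16. That of the pericyte and smooth muscle list turned from -0.23 to 0.27, and that of the endothelium and blood-retina barrier list moved from -0.65 to -0.49. Without WT replicate 1 the 3 medians were -0.62, -0.11 and -0.55. The part of pigment epithelium in these differences was not tested.

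Within the VEGF, angiopoietin and hypoxia list 28 genes were tested. Of these 1 (3.57%) was called higher and 2 (7.14%) lower, against 3.96% and 3.68% of all tested genes. Hif1a, the oxygen-sensing transcription factor, rose from 1006, 963 and 1115 CPM in WT to 1282, 1240.4, 1334 and 1605 CPM in Akita (0.41 ± 0.11, adjusted p = 0.031). Ctgf (-1.10 ± 0.27, adjusted p = 0.024), a matrix-associated growth factor, and Nrp2 (-0.90 ± 0.23, adjusted p = 0.027), a VEGF-C and semaphorin receptor, fell, and both were highest in WT replicate 2. Vegfa itself measured 10.6, 8.71 and 7.95 CPM in WT and 7.15, 7.59, 6.03 and 6.96 CPM in Akita; all Akita values were below all WT values, but the gene was not called (-0.39 ± 0.20, adjusted p = 0.21).

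Oxidative and cellular stress genes were mostly not called. Of 38 NRF2 regulators and targets 2 (5.26%, against 3.96% of all tested genes) were called higher and 0 lower. The list median was 0.09, or -0.11 with library totals in place of TMM. Nfe2l2, which encodes NRF2, measured 26.5, 27.02 and 24.99 CPM in WT and 33.8, 31.9, 36.2 and 43.2 CPM in Akita (0.47 ± 0.12, adjusted p = 0.027), and Akr1b8, an aldo-keto reductase, 0.287, 1.04 and 0.783 CPM and 2.45, 1.62, 2.39 and 2.40 CPM (1.65 ± 0.36, adjusted p = 0.017). The textbook NRF2 targets Nqo1 (5.18 to 8.15 CPM in WT and 2.90 to 9.10 CPM in Akita, -0.04 ± 0.27, adjusted p = 0.94) and Hmox1 (3.31 to 3.52 CPM in WT and 2.81 to 4.83 CPM in Akita, 0.01 ± 0.28, adjusted p = 0.98) were not called. Of 31 antioxidant and metallothionein genes 3 (9.68%) were called higher, against 3.96% of all tested genes. They were Sod2, the mitochondrial superoxide dismutase (144, 135 and 151 CPM in WT and 183, 167, 177 and 211 CPM in Akita, 0.36 ± 0.09, adjusted p = 0.027), and the glutaredoxins Glrx (0.36 ± 0.11, adjusted p = 0.042) and Glrx2 (0.30 ± 0.09, adjusted p = 0.046). REDD1 and TXNIP are both studied as stress genes of the diabetic retina. Of 14 genes around them 1 (7.14%, against 3.96% of all tested genes) was called higher, Sesn1, a sestrin that restrains mTORC1. Sesn1 measured 129, 133 and 161 CPM in WT and 192, 183, 237 and 228 CPM in Akita (0.58 ± 0.10, adjusted p = 0.012). Ddit4, the gene of REDD1 (169 to 194 CPM in WT and 175 to 269.7 CPM in Akita, 0.20 ± 0.12, adjusted p = 0.28), and Txnip (0.20 ± 0.39, adjusted p = 0.78) were not.

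Single genes were called in the other stress lists. Pdia4, a protein disulfide isomerase, was the 1 (3.12%) called of 32 genes of endoplasmic reticulum stress (0.40 ± 0.10, adjusted p = 0.025). Chordc1, a co-chaperone of HSP90, was the 1 (5.56%) of 18 heat shock genes (-0.36 ± 0.10, adjusted p = 0.03). Of 23 apoptosis and p53 genes 1 (4.35%) was called higher and 0 lower. These shares were near those of all tested genes, 3.96% called higher and 3.68% lower. Of 13 inflammation and leukocyte adhesion genes, 23 interferon and MHC class I genes and 17 complement genes 0 were called by edgeR. Il1b and Il6 had 0 to 2 reads per library and were not tested. Irf7, an interferon-induced transcription factor, came nearest in the interferon list, with 12.1, 16.3 and 14.7 CPM in WT and 30.2, 28.1, 18.5 and 116 CPM in Akita (1.74 ± 0.57, adjusted p = 0.071); Akita replicate 4 was far above the other 3.

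Of 33 glycolysis and glucose uptake genes 3 (9.09%) were called higher and 2 (6.06%) lower, against 3.96% and 3.68% of all tested genes. With the replicate block, without WT replicate 1 or 2 and without Akita replicate 4, 0 of them were called. Without WT replicate 1 or 2, 0 of all tested genes were called, so that result is not particular to this list. Hk1 and Hk2 encode hexokinases, which trap glucose in the cell, and Hk2 is a photoreceptor enzyme in retina. Hk2 measured 152, 165 and 195 CPM in WT and 285, 254, 276 and 598 CPM in Akita (1.05 ± 0.29, adjusted p = 0.039), and Hk1 rose from 762, 797 and 857 CPM in WT to 1059, 967, 1127 and 1612 CPM in Akita (0.56 ± 0.14, adjusted p = 0.023). Pdhb, a subunit of pyruvate dehydrogenase, rose (0.33 ± 0.10, adjusted p = 0.043). Slc2a3, the neuronal glucose transporter, fell from 111, 91.6 and 81.5 CPM in WT to 62.8, 64.3, 75.2 and 43.9 CPM in Akita (-0.62 ± 0.17, adjusted p = 0.034), and Pfkfb3, a glycolytic activator, fell as well (-0.47 ± 0.14, adjusted p = 0.045). Slc2a1, the glucose transporter of barrier and photoreceptors, was not called (0.50 ± 0.20, adjusted p = 0.11). Of 18 polyol, glycation and hexosamine genes 1 (5.56%) was called higher and 2 (11.1%) lower, against 3.96% and 3.68% of all tested genes. Glo1, which detoxifies methylglyoxal, was called higher (177, 166 and 214 CPM in WT and 261, 243, 229 and 364 CPM in Akita, 0.56 ± 0.14, adjusted p = 0.024), and Ogt, which attaches N-acetylglucosamine to proteins (202, 202 and 211 CPM in WT and 148, 158, 134 and 136 CPM in Akita, -0.51 ± 0.10, adjusted p = 0.016), and Prkcb, a protein kinase C gene (-0.90 ± 0.24, adjusted p = 0.036), lower. Akr1b3, aldose reductase, was at 1.84 to 3.16 CPM in WT and 1.70 to 3.30 CPM in Akita (-0.23 ± 0.25, adjusted p = 0.57).

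Of 31 insulin and IGF signalling genes 3 (9.68%) were called higher and 1 (3.23%) lower, against 3.96% and 3.68% of all tested genes. Igf2, a growth factor, measured 11.7, 11.99 and 9.88 CPM in WT and 20.5, 17.4, 19.3 and 17.4 CPM in Akita (0.74 ± 0.13, adjusted p = 0.012), and Igf1, its relative, 40.4, 42.8 and 30.1 CPM and 24.9, 27.8, 30.3 and 16.1 CPM (-0.60 ± 0.18, adjusted p = 0.045). The Igf2 groups did not overlap; its exons overlap those of Igf2as on the other strand. Tsc2, a brake on mTORC1 (0.31), and Pik3r1, a regulatory subunit of PI3-kinase (0.41), were the other increases. Of 29 fatty acid genes 4 (13.8%) were called lower and 2 (6.9%) higher, against 3.68% and 3.96% of all tested genes. The elongases Elovl6 (45.8, 41.1 and 43.5 CPM in WT and 28.8, 31.4, 27.7 and 25.6 CPM in Akita, -0.61 ± 0.12, adjusted p = 0.015), Elovl1 (-1.08) and Elovl5 (-0.59) and the carnitine palmitoyltransferase Cpt1c (-0.61) fell, while Elovl2, which elongates very long polyunsaturated chains (0.55), and Srebf1, the transcription factor of fatty acid synthesis (92.6, 111 and 88.9 CPM in WT and 178, 156, 121 and 251 CPM in Akita, 0.86 ± 0.21, adjusted p = 0.025), rose. Of 26 cholesterol genes 1 (3.85%, near the 3.96% of all tested genes) was called higher, Scap, the sterol sensor of SREBP (0.46 ± 0.14, adjusted p = 0.05).

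Mitochondrial genes shifted by little. Of 37 nuclear complex I genes 1 (2.7%, against 3.96% of all tested genes) was called higher, Ndufv3 (0.36 ± 0.11, adjusted p = 0.045). Of 41 nuclear genes of complexes II to V 0 were called. Yet every Akita library exceeded every WT library in 15 (40.5%) and 21 (51.2%) of the genes of these 2 lists, against 11.2% of all tested genes. The medians were 0.14 and 0.17. Both medians turned negative, at -0.09 and -0.07, once reads outside exons entered as a covariate, and with library totals in place of TMM they were -0.05 and -0.02. The 8 tested mitochondrially encoded genes gave 0 calls (median 0.11, or -0.07 with library totals). Of 76 cytosolic ribosomal protein genes 2 (2.63%, against 3.68% of all tested genes) were called lower, Rpl24 (-0.41 ± 0.10, adjusted p = 0.021) and Rpl9 (-0.96 ± 0.26, adjusted p = 0.032). Both are in families with many near-identical copies, so that their reads are uncertain. Of 32 proteasome genes 0 were called (median 0.11, or -0.08 with library totals).

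Long noncoding RNAs held some of the strongest decreases. Meg3, Rian and Mirg are maternally expressed noncoding RNAs that lie in a row on the plus strand of chromosome 12 (mm9), at 110779211 to 110809936, 110842155 to 110899919 and 110973191 to 110987665. Meg3 measured 293, 230.0 and 206 CPM in WT and 71.7, 84.02, 70.6 and 65.6 CPM in Akita (-1.73 ± 0.30, adjusted p = 0.014), Rian 32.1, 24.6 and 22.2 CPM and 15.3, 16.7, 14.8 and 9.86 CPM (-0.89 ± 0.18, adjusted p = 0.016), and Mirg 4.09, 4.80 and 3.61 CPM and 1.05, 1.04, 1.32 and 0.912 CPM (-1.93 ± 0.33, adjusted p = 0.012). The groups did not overlap for any of the 3. For Meg3 and Mirg the lowest WT level was more than 2 times the highest Akita level, whereas the Rian groups were closer. Their exons contain small RNA genes, whose reads cannot be told from those of the host. Snhg11, a host of small nucleolar RNAs on chromosome 2, measured 473, 366 and 284 CPM in WT and 125, 164, 119.7 and 105 CPM in Akita (-1.55 ± 0.31, adjusted p = 0.017), and Miat, a retinal noncoding RNA, fell (-1.46 ± 0.42, adjusted p = 0.041). Of 20 nuclear noncoding RNAs these 5 (25%, against 3.68% of all tested genes) were called lower and 0 higher. Malat1, the most abundant of them, was not called (4318 to 5034 CPM in WT and 2273 to 3584 CPM in Akita, -0.68 ± 0.31, adjusted p = 0.17). Of 31 imprinted genes 4 (12.9%) were called lower (Meg3, Rian, Mirg and Impact) and 1 (3.23%) higher (Igf2), against 3.68% and 3.96% of all tested genes. Meg3, Rian and Mirg, which lie in a row, are counted in the noncoding RNA list too. With the share of reads outside exons, lower in every Akita library, as a covariate, the log2 fold changes were -0.93 for Meg3, -0.92 for Rian, -1.35 for Mirg, -0.79 for Snhg11 and -0.83 for Miat, and none was called (adjusted p = 0.27 to 0.47 by edgeR). Of 55 splicing factor genes 4 (7.27%) were called higher and 3 (5.45%) lower, against 3.96% and 3.68% of all tested genes. They were led by Cirbp, a cold-inducible RNA-binding protein (479.7, 503 and 561 CPM in WT and 969, 893, 722 and 859.6 CPM in Akita, 0.74 ± 0.15, adjusted p = 0.015), and Msi1, an RNA-binding protein of photoreceptors (0.94 ± 0.21, adjusted p = 0.02).

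Among the abundant genes called higher were several of photoreceptor metabolism and transport. Rbp3, the retinoid-binding protein between photoreceptors and pigment epithelium, measured 3507, 4202 and 4689 CPM in WT and 6790.4, 5970.3, 5383 and 10223 CPM in Akita (0.78 ± 0.19, adjusted p = 0.024). Slc6a6, the taurine transporter, rose from 1937, 2316 and 2450.0 CPM in WT to 3961, 3444, 3171 and 5774 CPM in Akita (0.87 ± 0.19, adjusted p = 0.017). Agpat3, which loads docosahexaenoic acid into phospholipids, rose from 2172, 2368 and 2588 CPM in WT to 3369, 3102, 3047 and 5345 CPM in Akita. Cpe, a carboxypeptidase that processes peptides, rose from 1972, 2096 and 2666 CPM in WT to 2894, 2779.8, 2936 and 4161 CPM in Akita. Frmpd1 rose from 139.7, 159 and 156 CPM in WT to 310.2, 285, 237 and 581 CPM in Akita (1.22 ± 0.22, adjusted p = 0.014), again with Akita replicate 4 highest. Hdc, the enzyme that makes histamine, measured 61.2, 67.5 and 70.5 CPM in WT and 108, 102, 102 and 147 CPM in Akita (0.79 ± 0.13, adjusted p = 0.012). Ube2t, a ubiquitin-conjugating enzyme of DNA repair, measured 3.30, 5.52 and 6.44 CPM and 12.2, 11.9, 13.6 and 14.5 CPM (1.35 ± 0.23, adjusted p = 0.012). Rad21, a cohesin subunit, measured 134, 127 and 144 CPM and 175, 181, 195 and 188 CPM (0.45 ± 0.08, adjusted p = 0.012).

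Low-abundance genes with large increases were Fstl3, a follistatin relative (0.933, 1.04 and 0.843 CPM in WT and 3.30, 2.26, 2.76 and 3.48 CPM in Akita, 1.64 ± 0.36), Rspo2, an enhancer of WNT signalling (1.26 ± 0.37), Apobec2 (1.23 ± 0.23), Il9r, a cytokine receptor (1.35 ± 0.33), and Hpdl, a mitochondrial dioxygenase-like protein (1.16 ± 0.25). Among the decreases, Nab2, a co-repressor of EGR factors, measured 15.5, 13.99 and 12.2 CPM in WT and 6.24, 6.49, 7.10 and 4.81 CPM in Akita (-1.17 ± 0.19, adjusted p = 0.012). Lrrc8c, a subunit of volume-regulated anion channels, measured 9.33, 11.2 and 8.91 CPM and 4.56, 4.11, 5.46 and 3.73 CPM (-1.13 ± 0.19, adjusted p = 0.012). Slc7a3, an arginine transporter, measured 4.95, 5.52 and 5.54 CPM and 1.75, 1.51, 2.26 and 1.41 CPM (-1.61 ± 0.37, adjusted p = 0.019). Chrd, a BMP antagonist, was at 1.26 to 2.08 CPM in WT and 0.351 to 0.580 CPM in Akita (-1.72 ± 0.40, adjusted p = 0.02). Impact, a translational regulator of neurons, and Tspyl4 were among the most abundant decreases, from 409.9, 313 and 333 CPM in WT to 251, 256, 273 and 187 CPM in Akita and from 476, 356 and 374 CPM in WT to 313, 311, 287 and 208 CPM in Akita.

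Of the 47 lists plotted, the rod list had the highest median and 4 lists the lowest. Under the 20 alternatives the median log2 fold change of the rod list ranged from 0.26 to 0.55, of the endothelial list from -0.88 to -0.23, of glutamate receptors from -0.83 to -0.38, of the amacrine list from -0.77 to -0.49 and of GABA and glycine signalling from -0.74 to -0.41. The number of called members ranged from 0 to 20, 3, 10, 12 and 19 in the same order. The pigment epithelium list had a median of -1.31 that moved to -0.05 without WT replicate 2, and the lens list a median of 5.82 that moved to -0.53 without Akita replicate 2.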

How the data were processed

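Retinal RNA from 18 libraries was analysed, of which 3 WT and 4 Akita libraries were compared. Per the labels and the study's methods, the authors prepared polyadenylated libraries, aligned single-end reads to mm9 with TopHat2 2.1.0 and Bowtie and deposited raw counts per gene from HTSeq 0.11.2 without regard to strand. A read shared by overlapping genes on either strand can therefore fall to either of them or to none.

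Summary rows, a nameless row and 185 ribosomal RNA genes were removed. Counts were scaled by TMM, so that CPM here refers to the scaled library size, and fitted with edgeR 4.0.16 (R 4.3.3, quasi-likelihood, robust, filterByExpr with a minimum count of 10) on the 4 groups together, which gave a common biological coefficient of variation of 0.186 and the contrast of Akita minus WT. SE is the log2 fold change divided by the root of the F statistic. Genes were matched to GENCODE vM1 (mm9), which held 33643 of the 35006 names (96.1%). Library totals were 11495596 to 17814480 reads, so that 1 read was worth under 0.1 CPM. No pair of replicates agreed within sampling noise. Library measures were compared by exact permutation over all 35 splits of 3 against 4.

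Named genes were, from called genes that averaged 1 CPM or more and whose 2 groups did not overlap, the 12 largest changes, the 6 smallest p-values and the 6 highest levels in each direction, up to 4 called members of each gene list, fixed disease genes and cell-type markers. Other called members of the rod, amacrine, GABA and glycine, and glutamate receptor lists, and the remaining genes of small counts, were named after their values were seen. Members, lists and tests were chosen with earlier results of these data known. 13 processing alternatives (DESeq2 1.42.0 among them, and library totals in place of TMM, added after the data were seen) and 7 that leave out 1 library were run. Some genes are not reported here. The scripts were tested on simulated counts.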

Additional observations from a re-analysis of the deposited data

Results flagged for a closer look

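In each of 234 measures (5 library measures, the summed levels of 52 gene lists and the levels of 177 named genes), the 4 Akita libraries were examined for 1 library set apart from the other 3, by the gap to its nearest neighbour as a share of the whole range of the group. The limit was Dixon's 95% critical value for 4 samples. Chance passes it in about 1 of 20 groups, and 29 of 234 measures (12.4%) passed it. The measures are not independent, since list sums contain named genes and all come from the same 4 libraries. The 12.4% can therefore not be tested against the chance rate. The WT group of 3 libraries is too small for this check.

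Akita replicate 4 was the library set apart in most of them. Among summed list levels it stood apart in cone phototransduction (gap ratio 0.915), photoreceptor cilium (0.836), apoptosis and p53 (0.894), polyol, glycation and hexosamine (0.836), GABA and glycine signalling (0.925), presynaptic release and ribbon (0.873) and splicing factors (0.901). It was highest in all of these except GABA and glycine signalling, where it was lowest. Among genes called higher it was highest for Ctif (0.951), Hdc (0.851), Agpat3 (0.860), Cpe (0.887), Crx (0.916), Cnga1 (0.902), Rgs9bp (0.840), Glrx2 (0.904), Hk2 (0.912), Scap (0.851) and Rora (0.903), and for the uncalled Irf7 (0.880). Among genes called lower it was lowest for Eng (0.885) and Slc32a1 (0.862). With this library left out, 234 genes were called, 132 higher and 102 lower.

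Akita replicate 2 stood apart for the lens crystallin sum (0.989) and for Crygb (0.992), at 108 CPM against 0.166 CPM in Akita replicate 4, and had the lowest Akr1b8 level (0.918). Akita replicate 3 stood apart for the proteasome sum (0.949), for the immediate early sum, where it was lowest (0.896), for Gls2 (0.922) and Hmox1 (0.830), where it was highest, and for Kcnb2 (0.859), where it was lowest. No cause of these gaps was tested.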

How the results depend on the processing

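Against 1237 called genes, 641 higher and 596 lower, DESeq2 on all groups called 2080 (1197 higher, 883 lower), library totals in place of TMM, added after the data were seen, 1861 (215 higher, 1646 lower), edgeR on WT and Akita alone 148 (20 higher, 128 lower), and edgeR without the WT + NACET libraries 875 (280 higher, 595 lower). The replicate block called 507 (202 higher, 305 lower), with the GC offset 625 (316 higher, 309 lower). Same-numbered WT and Akita libraries did not deviate together (r = 0.04, -0.02 and -0.30), so the numbers give no pairing. The covariate for reads outside exons left 0 called genes, 0 higher and 0 lower. The GC offset alone moved the share called higher from 51.8% to 62.9%, library totals moved it to 11.6%, without the WT + NACET libraries it was 32.0%, with the replicate block 39.8% and with edgeR on the 2 groups 13.5%. Leaving out 1 library gave 0 to 1520 called genes, 0 to 765 higher and 0 to 755 lower, with 0 without WT replicate 1 (smallest adjusted p 0.0968) or WT replicate 2 (0.0544) and 1520 without WT replicate 3. The cause of these shifts was not tested. All 156 named genes that were called kept their sign wherever an alternative gave a value. That was in all 20 for 134 of them and in at least 16 for the rest, while 6 to 17 of the alternatives kept the call. Many were named for groups that did not overlap, so the fits that leave out 1 library could hardly turn their sign. Uncalled genes that changed sign were Alas2 (0.32 with the covariate), Nqo1 (0.0092 with replicate block and GC offset; -0.26 to 0.19 leaving out 1 library), Hmox1 (-0.00 without the WT + NACET libraries, -0.0114 at a mean count of at least 50, -0.40 with the covariate, -0.18 with library totals; -0.20 to 0.10 leaving out 1 library), Ddit4 (-0.0176 with library totals) and Txnip (-0.18 to 0.79 leaving out 1 library). With 3 and 4 libraries of 11495596 to 17814480 reads, genes near 1 CPM rest on few reads.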

Other observations

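Clock genes showed 2 calls among 23 tested (8.7%), both higher in Akita. Over all tested genes 3.96% were called higher and 7.64% in either direction. Rora, a nuclear receptor that activates Arntl, measured 221, 231 and 271 CPM in WT and 319, 297, 314 and 528 CPM in Akita (log2 fold change 0.59 ± 0.16 (SE), adjusted p = 0.032 by edgeR), and Cry1, a repressor of the clock, 78.4, 96.5 and 105 CPM and 119, 117, 126 and 151 CPM (0.46 ± 0.12, adjusted p = 0.026). Most clock genes that cycle in retina were not called, among them Dbp (-0.20 ± 0.14, adjusted p = 0.36) and Arntl (0.22 ± 0.12, adjusted p = 0.23). Akita replicate 3 had the lowest Per2 (5.34 CPM against 11.8 to 14.9 CPM in the other 6 libraries) and the lowest Per3 (35.04 CPM against 51.6 to 78.3 CPM). The summed level of the 23 genes was 2718, 2703 and 2848 CPM in WT and 3579, 3428, 2358 and 5503 CPM in Akita.

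Of 25 immediate early genes 1 (4%, near the 3.96% of all tested genes) was called, Ier3, higher in Akita (35.04 to 38.96 CPM in WT and 46.3 to 68.3 CPM in Akita, 0.51 ± 0.15, adjusted p = 0.044).

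Called genes were spread over all chromosomes, from 5.75% of tested genes on chromosome 18 to 9.23% on chromosome 3, against 7.64% over all. Among promoters of genes called higher, 231 of 491 (47%) held CCAAT on either strand, against 4474 of 11670 (38.3%) for all tested genes and 148 of 435 (34%) for genes called lower. GGGCGG was present in 330 of 491 (67.2%), 7357 of 11670 (63%) and 243 of 435 (55.9%) in the same order. The CRE TGACGTCA, its shorter form TGACGTNN (which overlaps it), the E-box CACGTG, the TATA box TATAAA, the spaced pair TTCNNNGAA and the MAF motif TGCTGA were searched too, on both strands, and their shares among genes called higher differed from those among all tested genes by less than 2 percentage points. Promoters were found for under 80% of these sets, so the shares describe the matched genes only.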
